A study of Mus musculus with 4 samples.

Results

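The genes that encode the proteins of the mitochondrial ribosome were compared between cochleae of mouse embryos lacking Meis2 in the Pax2-Cre lineage and wild-type cochleae. Members were every gene whose only symbol in the platform annotation was Mrpl or Mrps followed by a number and at most 1 letter. This rule found 77 of the 19938 genes on the array, 48 of the large subunit and 29 of the small subunit, read by 85 probe sets. The rule uses no measured value, but it was chosen with earlier results of these data known. Total RNA of whole cochleae at embryonic day 15 was hybridised to Affymetrix Mouse Gene 1.0 ST arrays, with 2 arrays of Meis2 flox/flox; Pax2 Cre/+ embryos and 2 of wild-type embryos. In the mutants a floxed Meis2, which encodes a TALE homeodomain transcription factor, was recombined by Cre under the control of Pax2, a gene expressed in the otic placode and its descendants. Periotic mesenchyme, cartilage, vessels and muscle attached to a whole cochlea lie outside most of that lineage. The labels of the wild-type arrays do not say whether those embryos carried a floxed allele or Cre.

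The mitochondrial ribosome translates the few respiratory chain and ATP synthase subunits that mitochondrial DNA encodes. Its RNAs come from mitochondrial DNA, whereas all its proteins are encoded in the nucleus, made in the cytosol and imported. The small subunit decodes the messenger RNA, and the large subunit joins the amino acids and passes the chain out through a tunnel at the inner membrane. Part of the proteins descend from those of bacterial ribosomes and the others were gained in mitochondria. Hearing depends on this machine: variants of the mitochondrial small rRNA sensitise hair cells to aminoglycosides, and inherited defects of MRPS2 and MRPS7 include hearing loss.

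Values are the log2 signals of the deposited table, and a difference is the mean of the mutant arrays minus the mean of the wild-type arrays, so that a negative value means a lower signal in the mutants. The median signal of the 4 arrays lay between 6.63 and 6.73. Every one of the 77 members had a mean level, from 6.52 to 10.26, above 5.76, the 95th percentile of the 1178 olfactory and vomeronasal receptor genes on the array. Meis2 itself read 9.64 and 9.38 in wild type and 9.61 and 9.80 in the mutants, but the sources used here do not say whether its probe set lies in the deleted part, so this does not check the labels. Wild-type replicate 2 stood apart at Xist, with 5.54 against 11.51 in wild-type replicate 3 and 11.83 and 11.84 in the mutants, and none of the 68 members with a mapped promoter lies on chromosome X or Y. The labels do not say whether the arrays came from separate embryos or litters, so the p-values rest only on the spread between arrays, with 2 residual degrees of freedom. Limma moderates the spread of each probe set by that of all probe sets, with 2.91 prior degrees of freedom. Every SE and p-value of limma given here is moderated in this way.

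Mitochondrial ribosomal protein genes were mostly lower in the mutant cochleae. Of the 77 members, 43 fell (55.8%, against 16.2% of all genes) and 3 rose (3.90%, against 24.2% of all genes) at a limma adjusted p below 0.05 over all probe sets. The median difference of the members was -0.48, against 0.13 over all genes. All genes include dim ones: of the 1178 olfactory and vomeronasal receptor genes, 0 fell and 198 rose. With probe sets at or below a mean level of 6.69 left out, 41 of 75 members fell (54.7%), against 27.7% of 11857 genes. Under that filter 4 members rose, against 29.5% of those genes. The median difference was then -0.45 for the members and 0.03 for those genes. 12 members fell by 2-fold or more, which 3.83% of all genes did, and none rose by that much. Both wild-type arrays exceeded both mutant arrays in 60 members, an order seen in 26.6% of all genes. The opposite order held for 9 members and for 53.8% of all genes. In bulk tissue, less of these RNAs per cell and fewer cells rich in them cannot be told apart.

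**Figure D1:**
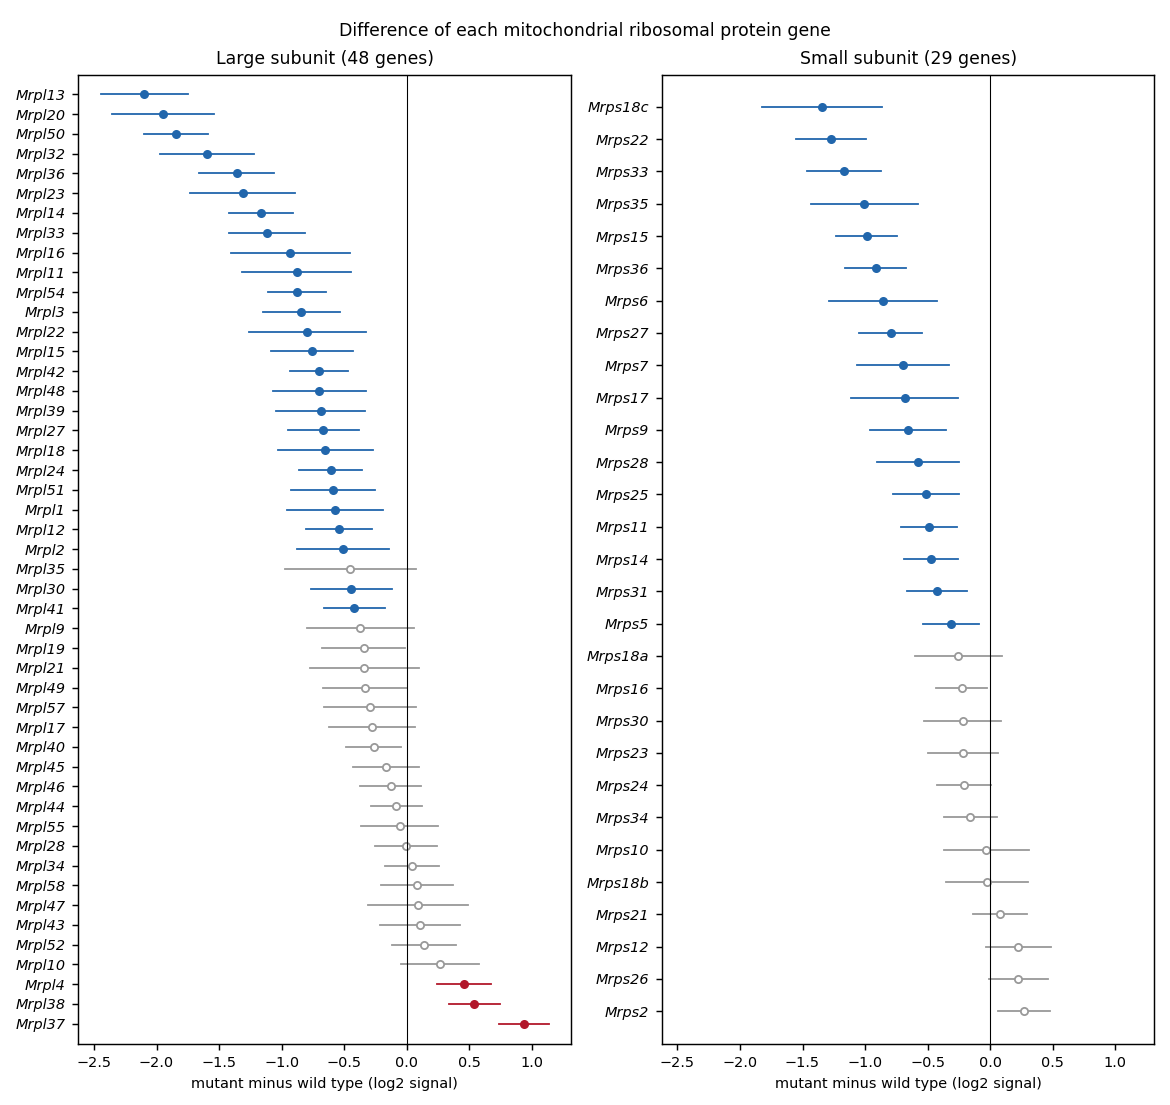
Each row is 1 gene, with the large subunit on the left and the small subunit on the right. Points give the mutant minus wild-type difference in log2 signal and lines its 95% confidence interval from limma. Blue marks genes that fell, red genes that rose and open grey points genes not past the threshold. The genes spread from -2.10 for Mrpl13 to 0.93 for Mrpl37, and most lie left of 0 in both panels.

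Both subunits shared this shift. Of the 48 large subunit genes, 26 fell (54.2%, against 16.2% of all genes) and 3 rose (6.25%, against 24.2%), and 8 of the decreases were 2-fold or more. Of the 29 small subunit genes, 17 fell (58.6%), 4 of them by 2-fold or more, and 0 rose by limma. In this subunit 1 gene (Mrps2) was higher at an unadjusted limma p below 0.05. SAM called 3 of the 29 higher, while it called 53.4% of all genes higher. The median difference was -0.48 in each subunit. The difference was negative in 39 of 48 and in 25 of 29 genes, respectively, against 6850 of all 19938 genes.

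**Figure D2:**
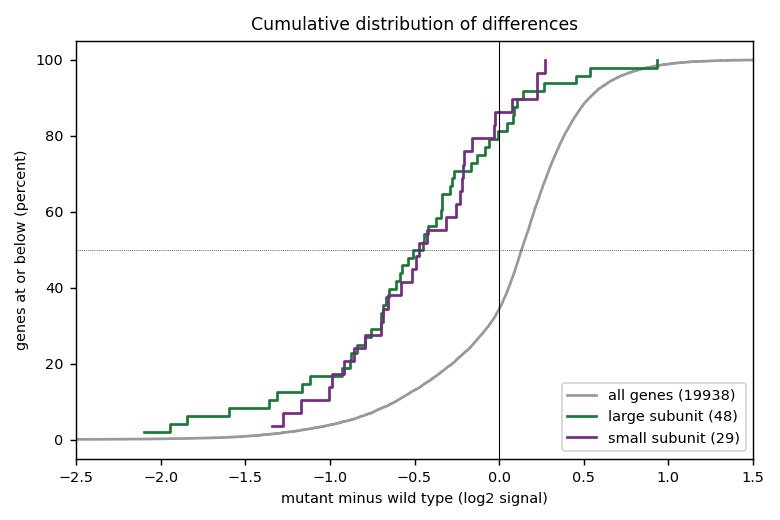
The curves give the percentage of genes at or below each mutant minus wild-type difference in log2 signal, for all 19938 genes in grey, the 48 large subunit genes in green and the 29 small subunit genes in purple. Both subunit curves cross the dotted 50% line near -0.48, and the curve of all genes crosses it at 0.13. Their upper ends lie within the range of all genes.

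In the large subunit the deepest decrease was in Mrpl13, the counterpart of a bacterial protein that joins the ribosome early in its assembly. Mrpl13 read 9.14 and 9.44 in wild type and 7.28 and 7.11 in the mutants, a difference of -2.10 ± 0.13 (SE, 2 arrays per genotype, limma adjusted p = 0.00272), or 4.28-fold lower. Mrpl20, also the homologue of a bacterial protein needed for assembly, read 8.75 and 9.17 in wild type against 7.06 and 6.97, a difference of -1.95 ± 0.16 (adjusted p = 0.00320). In both genes the mutant arrays lay more than 1.5 log2 units below the lower wild-type array. Mrpl50, a protein with no bacterial counterpart, read 9.25 and 9.44 against 7.497 and 7.501, a difference of -1.84 ± 0.10 with the smallest adjusted p of the family (0.00249).

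Mrpl32 is made as a precursor that a protease of the inner membrane must cut before the large subunit can be completed. It read 7.91 and 8.29 in wild type and 6.53 and 6.47 in the mutants (-1.60 ± 0.14, limma adjusted p = 0.00369). The next 4 decreases were in Mrpl36 (-1.36), Mrpl23 (-1.31), Mrpl14 (-1.16) and Mrpl33 (-1.12), all homologues of bacterial proteins. Mrpl23 belongs to the rim of the exit tunnel and Mrpl14 to the face that meets the small subunit. These 8 genes were picked among decreases without overlap of the genotypes, so their lack of overlap is no separate result. Their differences stayed negative whichever array was left out, from -2.25 to -1.95 for Mrpl13 and from -1.25 to -0.98 for Mrpl33.

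The other large subunit genes picked for their place in the ribosome were split. Mrpl12 and Mrpl11 belong with Mrpl10 to the stalk that recruits translation factors. Mrpl11 read 8.67 and 9.13 against 8.01 and 8.03 and Mrpl12 read 9.13 and 9.31 against 8.62 and 8.74. Both fell, by 0.88 and 0.54 on the log2 scale (limma adjusted p = 0.0169 for each), and both lost the call without either mutant array. Mrpl10 read 9.89 and 10.15 against 10.35 and 10.22, a positive difference of 0.27 that did not pass the test (adjusted p = 0.140). Within the stalk, the mutant arrays therefore lay below the wild-type arrays for Mrpl11 and Mrpl12 and above them for Mrpl10.

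Mrpl3, which reaches towards the peptidyl transferase centre, read 9.23 and 9.29 in wild type against 8.56 and 8.28 and fell by 0.84 (limma adjusted p = 0.00825). Mrpl45, which holds the ribosome to the inner membrane beside the tunnel exit, read 7.503 and 7.72 against 7.46 and 7.43 (-0.17, adjusted p = 0.249). Its mutant arrays lay below the lower wild-type array by less than the gap between the wild-type arrays.

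Only Mrpl37, Mrpl38 and Mrpl4 rose. Mrpl37, a protein gained in mitochondria, had close replicates, with 9.75 and 9.73 in wild type and 10.68 and 10.66 in the mutants. Its difference was 0.93 ± 0.08 (limma adjusted p = 0.00329), or 1.91-fold higher. Mrpl38, likewise without a bacterial counterpart, read 8.40 and 8.42 against 8.98 and 8.91 (0.54 ± 0.08, adjusted p = 0.00905). Mrpl4, whose bacterial homologue lines the exit tunnel, read 8.98 and 9.02 against 9.50 and 9.40 (0.45 ± 0.08, adjusted p = 0.0156). The genotypes did not overlap in any of the 3, nor in any other member past the threshold, so this is no separate result. Both mutant arrays lay above both wild-type arrays in 53.8% of all genes. Mrpl37 alone stayed past the threshold without any 1 array, whereas Mrpl38 and Mrpl4 lost it without either mutant array.

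**Figure D3:**
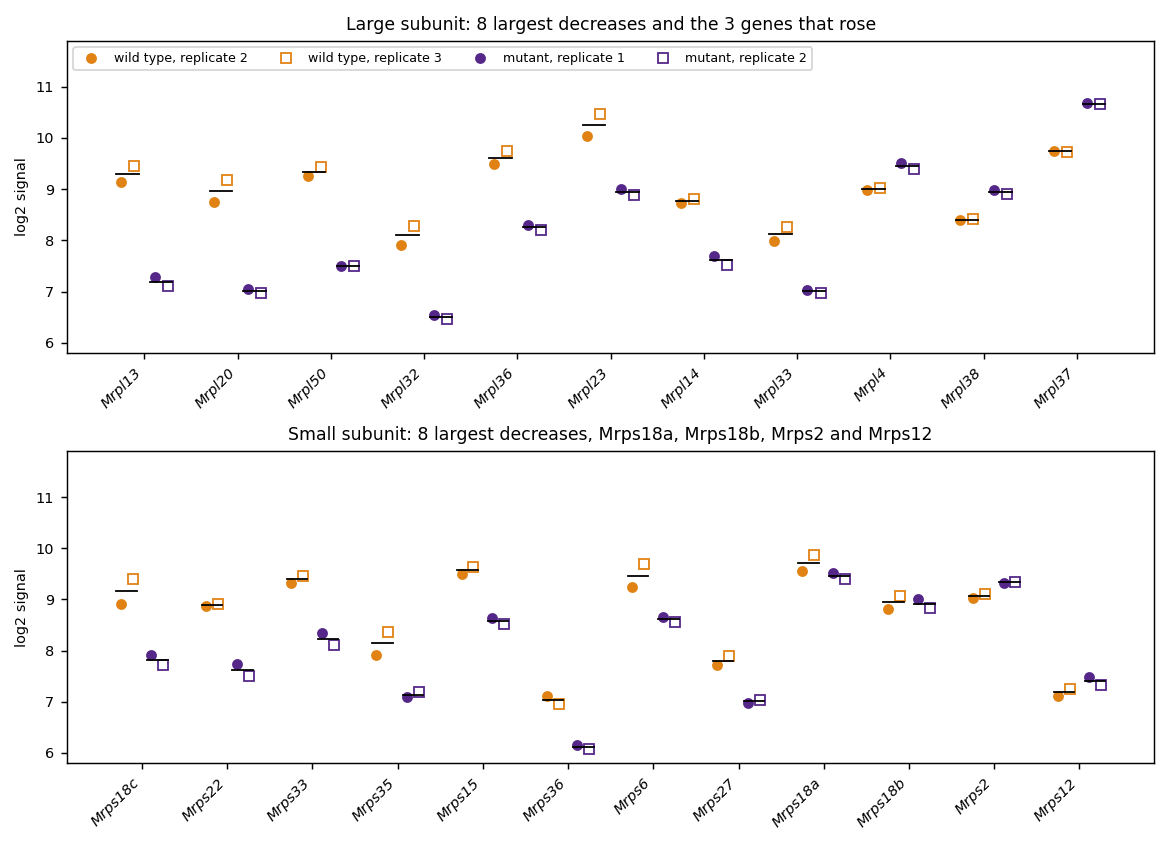
Log2 signal of single arrays, with circles and squares for the replicates of each genotype, orange for wild type and purple for mutants, and black bars for group means. The upper panel shows the 8 large subunit genes with the largest decreases and the 3 that rose, the lower panel the 8 small subunit genes with the largest decreases and Mrps18a, Mrps18b, Mrps2 and Mrps12. The 16 genes with the largest decreases were picked among those in which every wild-type array lies above both mutant arrays. In Mrpl4, Mrpl38 and Mrpl37 every mutant array lies above both wild-type arrays.

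The upstream 250 bases of 3 large subunit genes are shown because they carry opposite or extreme changes: Mrpl20 and Mrpl32 with large decreases and Mrpl37 with the largest increase. Mrpl13 had no entry in the RefSeq promoter table, so Mrpl20 stands in for it, and Mrpl32 and Mrpl37 were chosen after their values were seen. Sequences run 5′ to 3′ on the gene's own strand up to the base before the RefSeq start in GRCm38.p6, at chr4:155802628-155802877 (plus strand) for Mrpl20, chr13:14613038-14613287 (minus strand) for Mrpl32 and chr4:107066867-107067116 (minus strand) for Mrpl37. Capitals mark matches on either strand to the motifs searched.
Mrpl20: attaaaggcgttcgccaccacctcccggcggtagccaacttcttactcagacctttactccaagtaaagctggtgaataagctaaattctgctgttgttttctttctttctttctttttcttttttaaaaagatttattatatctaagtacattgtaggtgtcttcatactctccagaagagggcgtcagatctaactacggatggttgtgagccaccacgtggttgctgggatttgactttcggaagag
Mrpl32: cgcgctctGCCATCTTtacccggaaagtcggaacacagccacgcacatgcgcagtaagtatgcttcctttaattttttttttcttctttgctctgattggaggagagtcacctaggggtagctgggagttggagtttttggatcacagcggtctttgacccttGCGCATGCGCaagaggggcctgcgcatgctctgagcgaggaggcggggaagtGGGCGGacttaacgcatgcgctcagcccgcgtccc
Mrpl37: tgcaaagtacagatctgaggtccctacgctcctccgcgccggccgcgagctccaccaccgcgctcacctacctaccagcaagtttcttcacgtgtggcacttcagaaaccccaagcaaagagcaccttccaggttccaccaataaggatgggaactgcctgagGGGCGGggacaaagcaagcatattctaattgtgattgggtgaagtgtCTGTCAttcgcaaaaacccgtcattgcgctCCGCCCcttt
Mrpl20 held none of the motifs in these bases, and held the Meis motif once the 50 bases after its start were included. In Mrpl32 the capitals are, in order, a YY1 match on the other strand, the palindrome bound by NRF1 and a GC box. In Mrpl37 they are a GC box, the Meis motif on the other strand and a second GC box, also on the other strand, and the 50 bases after the start add a YY1 match.

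In the small subunit the deepest decrease was in Mrps18c. It is 1 of 3 mammalian descendants of the bacterial protein S18, and the only one that takes that protein's own place in the small subunit. Mrps18c read 8.91 and 9.40 in wild type and 7.92 and 7.71 in the mutants, a difference of -1.34 ± 0.19 (SE, limma adjusted p = 0.00783), or 2.54-fold lower. Its relatives did not pass the test. Mrps18a, which sits in the large subunit despite its name, read 9.55 and 9.87 against 9.52 and 9.39 (-0.25, adjusted p = 0.192). Mrps18b read 8.82 and 9.07 against 9.01 and 8.83, with overlapping genotypes (-0.03, adjusted p = 0.885). The difference between the decreases of the 3 relatives was not tested.

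The same 250 upstream bases of these relatives, which descend from 1 ancestor and had unequal differences, lie in GRCm38.p6 at chr17:46110754-46111003 (plus strand) for Mrps18a, chr17:35916441-35916690 (minus strand) for Mrps18b and chr5:100798509-100798758 (plus strand) for Mrps18c.
Mrps18a: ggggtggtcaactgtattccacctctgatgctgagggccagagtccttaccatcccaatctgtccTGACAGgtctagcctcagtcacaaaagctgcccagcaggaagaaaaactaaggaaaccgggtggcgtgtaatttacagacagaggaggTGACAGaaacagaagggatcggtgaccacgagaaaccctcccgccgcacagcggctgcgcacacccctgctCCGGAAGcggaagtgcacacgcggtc
Mrps18b: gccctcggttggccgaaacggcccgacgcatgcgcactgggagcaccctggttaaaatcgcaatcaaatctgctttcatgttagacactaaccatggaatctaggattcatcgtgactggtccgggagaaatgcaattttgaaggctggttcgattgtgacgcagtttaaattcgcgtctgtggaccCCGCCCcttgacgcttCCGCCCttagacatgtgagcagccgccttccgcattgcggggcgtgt
Mrps18c: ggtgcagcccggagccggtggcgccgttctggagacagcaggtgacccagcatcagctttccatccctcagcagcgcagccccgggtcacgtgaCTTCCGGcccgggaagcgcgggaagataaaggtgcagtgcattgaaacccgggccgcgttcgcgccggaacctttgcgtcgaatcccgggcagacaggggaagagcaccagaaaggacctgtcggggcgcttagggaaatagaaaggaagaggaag
The capitals in Mrps18a are 2 Meis motifs and an ETS match, those in Mrps18b 2 GC boxes on the other strand, and that in Mrps18c an ETS match on the other strand. The 250 bases shown share no motif among all 3 genes. With the 50 bases after the start included, the ETS motif stood in all 3, and a YY1 match was added in Mrps18a and a GC box in Mrps18c.

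Mrps22, a mitochondrial addition whose loss in people causes heart and muscle disease, read 8.86 and 8.91 in wild type and 7.73 and 7.495 in the mutants (-1.27 ± 0.11, limma adjusted p = 0.00340). Mrps33 read 9.32 and 9.46 against 8.34 and 8.11 (-1.17, adjusted p = 0.00410), and Mrps35 read 7.92 and 8.37 against 7.09 and 7.19 (-1.01, adjusted p = 0.0116). These too are mitochondrial additions, and in each the genotypes were apart by more than the gap between replicates. They were picked among decreases without overlap, so their lack of overlap is no separate result. Mrps15 and Mrps6, with bacterial homologues, fell by 0.99 and 0.86, and Mrps27, a mitochondrial addition with pentatricopeptide repeats, by 0.80. Of these 6, Mrps35 and Mrps6 lost their calls without either mutant array.

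Mrps36, named for the small subunit but since assigned to the 2-oxoglutarate dehydrogenase complex of the citric acid cycle, read 7.11 and 6.95 against 6.15 and 6.09. It fell by 0.92 (limma adjusted p = 0.00449). Mrps30, which like Mrps18a sits in the large subunit, read 7.46 and 7.67 against 7.44 and 7.25 and did not pass the test (-0.22, adjusted p = 0.196).

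The genes linked to hearing loss or to decoding did not move as 1 group. Mrps7, of the head of the small subunit, read 9.003 and 9.10 in wild type and 8.54 and 8.17 in the mutants and fell by 0.70 (limma adjusted p = 0.0206). Mrps2 read 9.02 and 9.11 against 9.33 and 9.34, with both mutant arrays above, but missed the threshold (0.27, adjusted p = 0.0551). Mrps12, at the decoding centre, read 7.11 and 7.25 against 7.48 and 7.33 (0.22, adjusted p = 0.140). Mrps7 lost its call without wild-type replicate 3 (adjusted p = 0.0645) and without mutant replicate 2 (adjusted p = 0.0688). Mrps2 passed the threshold when probe sets without a symbol or with several were left out (adjusted p = 0.0342), when dim probe sets were left out (0.0444) and when quantile normalization was repeated (0.0275).

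31 members did not pass the test in either direction, 21 of them with a negative and 10 with a positive difference. Those nearest to 0 were Mrpl28 (-0.01), Mrpl34 (0.04) and Mrpl55 (-0.06) in the large subunit and Mrps18b (-0.03), Mrps10 (-0.03) and Mrps21 (0.08) in the small. Mrpl28, for example, read 8.56 and 8.63 in wild type and 8.67 and 8.499 in the mutants, with a 95% interval of the difference from -0.26 to 0.24. Differences inside that interval are compatible with these readings, so a small change in either direction is not excluded. The sign of all 6 turned under another scaling of the arrays.

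Genes were also grouped by the origin of the protein. Among all genes 16.2% fell and 24.2% rose, with a median difference of 0.13. Of the 30 large subunit genes with a bacterial homologue 19 fell (63.3%) and 1 rose (3.33%), with a median difference of -0.59. Of the 18 without one 7 fell (38.9%) and 2 rose (11.1%), with a median of -0.28. In the small subunit 10 of 16 with (62.5%) and 7 of 13 without a bacterial homologue (53.8%) fell. Their medians were -0.48 and -0.43, with no increase in either. The difference between these classes was not tested.

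Some members were read by more than 1 probe set. 8 members had 2 probe sets, and among all probe sets of the array 15.7% were called lower and 21.6% higher. Both probe sets were called lower for 5 genes: Mrpl23 (-1.31 in each), Mrpl27 (-0.67 and -0.52), Mrps33 (-1.17 and -1.04), Mrps36 (-0.92 and -1.04) and Mrps5 (-0.31 and -0.71). The Mrpl23 probe sets differed by a constant over the 4 arrays, so their differences are 1 reading. For Mrpl51 the brighter probe set fell by 0.59 and the other read -0.41 (limma adjusted p = 0.0558). For Mrpl41 the brighter fell by 0.42 and the other, with overlapping genotypes, read -0.06 (adjusted p = 0.650).

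Mrpl47 was the member whose probe sets disagreed in sign. The brighter read 6.999 in both wild-type arrays and 6.88 and 7.30 in the mutants (0.09, limma adjusted p = 0.669), and by the rule of the brightest probe set it stood for the gene. The other read 6.66 and 7.20 against 6.14 and 5.94 and fell by 0.89 (adjusted p = 0.0257). Which of them reads the full Mrpl47 transcript, and whether any probe set also reads a near-identical copy of a gene elsewhere, is not given in the sources used here.

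Arrays of 1 genotype also differed in these genes. Wild-type replicate 3 read above wild-type replicate 2 in 66 of 77 members, by a median of 0.18, against 12660 of 19938 genes and a median of 0.05. Mutant replicate 2 read below mutant replicate 1 in 61 of 77 members, by a median of 0.10, against 10127 genes and a median difference of -0.0028. These gaps lie within genotypes and were smaller than the median difference between them. Without wild-type replicate 2 the number of members that fell was 43 (55.8%, against 16.2% of all genes), and without wild-type replicate 3 it was 32 (41.6%, against 12%). Without mutant replicate 1 it was 21 (27.3%, against 8.84% of all genes), and without mutant replicate 2 it was 18 (23.4%, against 6.82%). 17 of the 43 decreases and 1 of the 3 increases kept their call without any 1 array.

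Promoter windows of 300 bases, 250 before and 50 after the start, were read from RefSeq's GRCm38.p6 table for 68 of the 77 members. The ETS motif CCGGAAG stood in 35.3% of them, against 12.5% of the 15563 genes on the array with an entry, and the YY1 motif AAGATGGC in 17.6% against 3.43%. The NRF1 palindrome, shown in capitals in Mrpl32, was in 3 members, or 4.41%, against 1.46%. These 3 factors are known to act on nuclear genes of mitochondrial proteins. The GC box GGGCGG was as frequent among members (50%) as among all (49.9%), and TATAAA stood in 5.88% against 12.1%. Both strands were searched, and a match is a run of letters, not a bound site.

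Motif counts were also set apart by call. The ETS motif was in 10 of 38 members that fell and in 14 of 30 that did not, and the YY1 motif in 6 of 38 and 6 of 30. TGACAG, a core that Meis proteins bind, was in 22.1% of members against 18.3% of the genes on the array, and in 7 of 38 that fell against 8 of 30. TGATNNAT, a core of Pbx and Hox dimers, was in 3 members (4.41%) against 7.06%, and all 3 of those fell. 14 members held none of the 7 motifs. Median GC content was 57.8% in members that fell, 58.7% in the others and 57.7% in all genes on the array. None of these shares was tested.

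23 members started back to back with another gene, their windows overlapping on opposite strands, and this layout was examined after the values were seen. In 19 of them the other gene was measured and was no member. Of the 10 members in such pairs that fell, 5 had a partner that fell too and 5 a partner that did not pass the test. Of the 8 members in such pairs that did not pass the test, 3 had a partner that fell, 2 a partner that rose and 3 a partner that did not pass. Mrpl37, which rose, had a partner that did not pass. Over all genes 16.2% fell, and the counts of pairs were not tested against each other. Mrpl32 was paired with Psma2, a proteasome subunit, which read 9.33 and 9.51 in wild type and 8.56 and 8.17 in the mutants (-1.06, limma adjusted p = 0.00944). Mrpl30, itself at -0.44, was paired with Mitd1, a protein of the last step of cell division, at -1.26 (adjusted p = 0.00271). Mrpl18 was paired with Tcp1, a subunit of the cytosolic chaperonin, at -0.86 (adjusted p = 0.00667).

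Other pairs did not move alike. Mrpl14 fell by 1.16 while its partner Tmem63b read 9.31 and 9.55 against 9.48 and 9.47 (0.05, limma adjusted p = 0.75). Mrps12 did not pass the test, but its partner Sars2, the mitochondrial seryl-tRNA synthetase, read 8.27 and 8.21 against 9.22 and 9.22 and rose by 0.98 (adjusted p = 0.00319). Mrpl43 did not pass either, at 0.11, whereas Twnk, the mitochondrial DNA helicase, fell by 0.33 (adjusted p = 0.0372). Mrps11 and Mrpl46 form a pair of 2 members, at -0.49 (adjusted p = 0.0137) and -0.13 (adjusted p = 0.313).

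**Figure D4:**
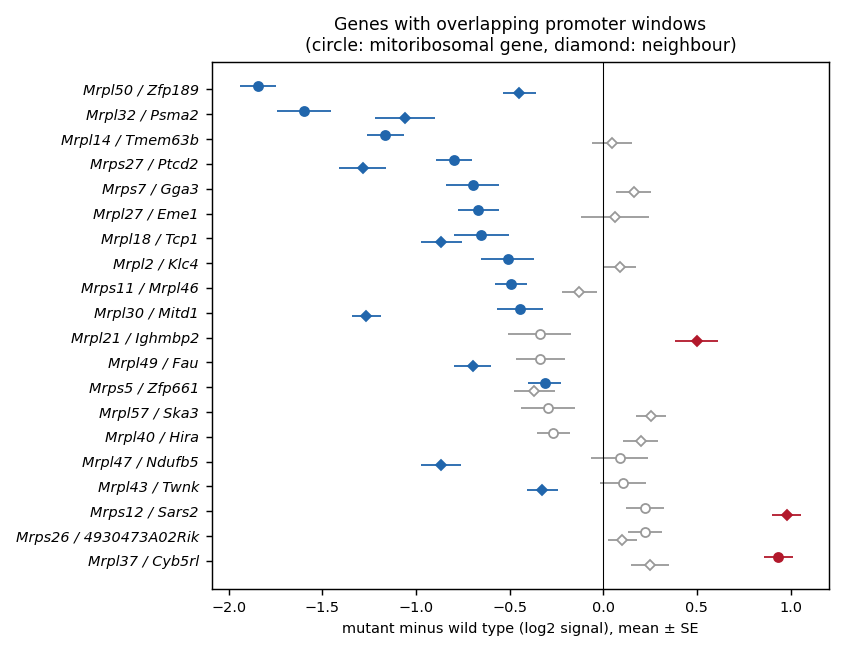
Each row is a mitochondrial ribosomal protein gene and the gene whose promoter window overlaps its own on the other strand. Circles give the first and diamonds the second, as mutant minus wild-type difference in log2 signal, with lines of 1 standard error. Blue marks genes that fell, red genes that rose and open grey symbols genes not past the threshold. Mrpl32 and Psma2 lie together left of 0, at -1.60 and -1.06, whereas Mrpl14 and Tmem63b lie apart, at -1.16 and 0.05.

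Most mitochondrial translation factors fell as well. Of 14 genes listed as translation factors 9 fell (64.3%, against 16.2% of all genes) and 1 rose, with a median of -0.64. The decreases included Mtif2 (-1.26), which starts translation, Guf1 (-1.25), an elongation factor of the LEPA family, and Gfm1 (-0.73), the translocase. The listed gene that rose was Oxa1l (0.66, limma adjusted p = 0.00613). Its protein inserts new chains into the inner membrane and is not itself a translation factor. Tufm, which delivers aminoacyl-tRNA, read 9.21 and 9.33 against 9.47 and 9.41 and did not pass the test. Of 4 subunits filed under other symbols Chchd1 fell by 1.60 and Ptcd3 by 0.51, and Dap3 and Gadd45gip1 did not pass.

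Of 33 genes for rRNA handling and assembly, 10 fell and 2 rose, with a median of -0.14. Slirp, which stabilises mitochondrial messenger RNA, fell by 1.65, whereas Mpv17l2, a membrane protein needed for ribosome assembly, rose by 1.28 (limma adjusted p = 0.00267) and Prorp, the nuclease of mitochondrial RNase P, by 0.88. The group of mitochondrial aminoacyl-tRNA synthetases, 19 genes, also held Gatb, Gatc and Qrsl1, subunits of a tRNA amidotransferase. None of these subunits passed the test. The group had 3 decreases, Yars2 (-1.05) and Rars2 (-0.70) among them, and 4 increases, with a median of -0.02. Its shares, 15.8% lower and 21.1% higher, were close to those of all genes (16.2% and 24.2%).

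Upstream of the ribosome, 5 of 12 genes for maintaining and transcribing mitochondrial DNA fell and 1 rose. Tfam, which packages the DNA and starts its transcription, read 7.99 and 8.05 in wild type and 6.59 and 6.31 in the mutants and fell by 1.57 (limma adjusted p = 0.00299). Ssbp1, the single-strand binding protein, fell by 1.54 and Tefm, the elongation factor, by 1.12, whereas Polrmt, the polymerase, rose by 0.36 (adjusted p = 0.0399). Of the mitochondrial genes themselves 2 were measured: ND3 fell by 0.83 (adjusted p = 0.0117) and COX2 read -0.23 (adjusted p = 0.0813). Of 10 regulators of mitochondrial genes only Tfam, already counted above, fell (10%, against 16.2% of all genes). 2 rose (20%, against 24.2% of all genes), Pprc1, a relative of PGC-1, by 0.82 and Myc by 0.58. Nrf1 (-0.03), Gabpa (-0.10) and Yy1 (-0.04), whose motifs were counted above, did not pass the test.

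Other parts of the mitochondrion and the cytosolic ribosome also had more decreases than increases. Of 26 import and chaperone genes 16 fell and 2 rose (median -0.50), and the 3 with the smallest p-values were the chaperonin Hspd1 (-1.38) and the translocase parts Timm8b (-1.36) and Tomm7 (-1.28). Of 20 matrix enzymes, carriers and porins 11 fell and 1 rose (median -0.56), and by the same rule Vdac3 stood at -1.37, Slc25a4 at -1.10 and Dld at -1.09. Of 73 nuclear respiratory chain genes 42 fell and 2 rose (median -0.49), and of 60 cytosolic ribosomal protein genes 37 fell and 1 rose (median -0.49). The share of members that fell, 55.8%, thus lay between the 55.0% of matrix and outer membrane genes and the 57.5% of respiratory chain genes. For all genes that share was 16.2%. Of 12 genes of inherited deafness tied to mitochondrial gene expression 5 fell and 1 rose, namely Tfb1m (-1.10), Clpp (-0.63), Mrps7, Nars2 and Twnk against Gtpbp3 (0.68).

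**Figure D5:**
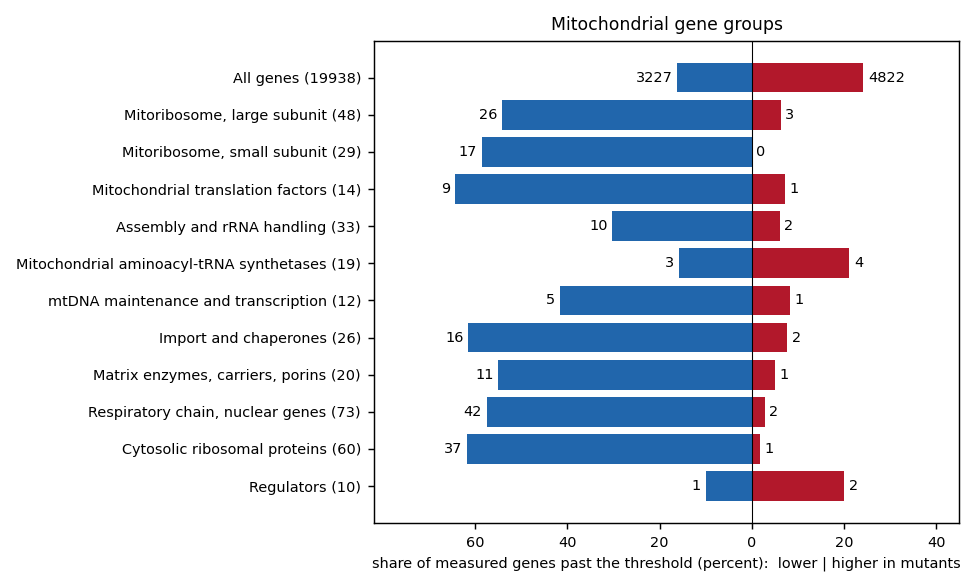
Bars give the percentage of the measured genes of each group that fell (blue, to the left) or rose (red, to the right) in the mutants at a limma adjusted p below 0.05. Numbers at the bars count genes and numbers in parentheses give the group size. Both subunits, the translation factors, the import genes, the respiratory chain and the cytosolic ribosome reach beyond 50% to the left, whereas all genes reach 16.2% and the aminoacyl-tRNA synthetases 15.8%. The synthetase group includes the amidotransferase subunits Gatb, Gatc and Qrsl1, and the translation factor group includes Oxa1l.

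Markers of cell types in the dissected tissue moved as well. Of 7 markers of ganglion neurons 5 fell and 0 rose, and the median of the list was 9.42 and 9.58 in wild type against 8.36 and 8.26. Nefl, a neurofilament, read 11.83 and 11.86 against 10.22 and 10.20. Of 12 skeletal muscle markers 8 rose and 0 fell, with a list median of 5.96 and 6.20 against 6.62 and 7.05. Of 7 hair cell markers 4 rose and 0 fell, of 6 prosensory markers 3 fell and 1 rose, and of 6 cartilage markers 2 rose and 0 fell. Of 5 erythroid markers 3 rose, the embryonic globin Hba-x by 1.08 among them, and 1, Alas2, fell by 0.88. Another embryonic globin, Hbb-bh1, did not pass the test (-0.12). Of 4 glial markers 2 fell, Fabp7 by 1.45, and 1, Sox10, rose by 0.46. Of 6 mesenchymal markers 2 fell, Coch by 1.09, and 0 rose. Of the markers of the cochlear duct roof 1 of 4 fell and 1 rose, of macrophages 1 of 6 fell, of the central nervous system 1 of 4 rose and of endothelium 0 of 4 passed the limma test, with 3 at an unadjusted p below 0.05 (Pecam1 at -0.23, Tek at -0.44 and Cdh5 at 0.21). These lists are short, and over all genes 16.2% fell and 24.2% rose. Macrophage markers stood higher in wild-type replicate 3, with a list median of 8.58 against 7.90 in wild-type replicate 2 and 7.87 and 7.95 in the mutants. What these cell type markers contribute to the differences of the ribosomal genes was not tested.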

How the data were processed

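RNA of whole cochleae was read on 2 wild-type and 2 Meis2 flox/flox; Pax2 Cre/+ Affymetrix Mouse Gene 1.0 ST arrays, with the number of embryos per array not given for them in the labels. The deposited table holds log2 signals per probe set that the authors made by robust multi-array average (RMA), which corrects background, equalises the arrays and merges probes. The submitters' processing notes name the mouse build mm8. No hybridisation or scan date was given.

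Genotypes were compared with limma 3.58.1 in R 4.3.3 over all 35556 probe sets, with Benjamini-Hochberg adjustment and a threshold of 0.05. A gene stands by its brightest probe set with 1 symbol (21789 such probe sets), and probe sets with several symbols were not named. Named genes were, per subunit, the 8 largest decreases without overlap, every increase and the 3 differences nearest to 0, all members with several probe sets, members picked by role, and the 3 smallest p-values of each accompanying list. Members, lists and markers were chosen with earlier results of these data known, so no list is independent support. The self-test on simulated data was run before the fit. Significance analysis of microarrays (SAM), which the paper names, was an alternative, besides eBayes settings, scaling, filters and leaving out each array. The version of SAM written here called 26962 probe sets from 6 relabelings, so its counts carry little weight. The paper states no threshold for SAM and reported far fewer differentially expressed transcripts, most of them lower in the mutants. The SAM counts given here are therefore not those of the paper. Promoters come from RefSeq's GRCm38.p6 table. The published binding and qPCR assays were not analysed here.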

Additional observations from a re-analysis of the deposited data

How the results depend on the processing

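The number of members that fell, 43, lay between 40 and 58 under the 10 other settings that kept all arrays, and SAM gave the 58. All 43 kept their call except Mrpl2, Mrpl30 and Mrps5 under repeated quantile normalization, Mrpl22 and Mrps36 under the filter on dim probe sets (whose mean levels fell under it, so that they were not tested), Mrpl30 under array weights and Mrpl41 under the mean of probe sets. SAM called 8 members higher, 5 of the large and 3 of the small subunit. Over all genes it called 53.4% higher and 25.7% lower, against 75.3% of members lower. The small subunit had 1 increase (Mrps2) with an adjusted p of 0.1, with repeated quantile normalization, without dim probe sets and when only those with 1 symbol were tested. Over the 4 fits without 1 array, members that fell numbered 18 to 43, those that rose 1 to 3, large subunit genes that fell 12 to 28 and rose 1 to 3, and small subunit genes that fell 6 to 15. The median difference of the large subunit was -0.64 to -0.39 over those fits. Median scaling moved the median of all genes from 0.13 to 0.05 and repeated quantile normalization to 0.07. Under median scaling 18.9% of all genes were lower and 15.7% higher, against 16.2% and 24.2%, and 45 members fell and 3 rose.

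Reversed signs were limited to genes that had not passed the test. Under the settings that kept all arrays, signs were compared only for the members picked for naming. Median scaling gave -0.040 for Mrpl34 and -0.0066 for Mrps21. Repeated quantile normalization gave 0.070 for Mrpl28, 0.014 for Mrpl55, 0.055 for Mrps18b and 0.043 for Mrps10, and the mean of both probe sets gave -0.40 for Mrpl47. Over the fits without 1 array, differences ranged from -0.092 to 0.081 for Mrpl28, from -0.19 to 0.075 for Mrpl55, from -0.15 to 0.10 for Mrps18b, from -0.16 to 0.10 for Mrps10 and from -0.12 to 0.30 for Mrpl47. Mrpl43 (-0.032 to 0.24) and Mrpl58 (-0.019 to 0.18) also changed sign over those fits. The cause of these changes was not tested. No paired analysis was possible because the genotypes share only replicate number 2 in the labels. With 2 arrays per genotype the number of arrays limits the precision.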
